A study of Mus musculus with 12 samples.

Results

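Components of Notch signalling were followed in the newborn mouse kidney: the receptors *Notch1*, *Notch2* and *Notch3*, the ligands *Jag1* and *Dll1*, the modifier *Lfng*, and the target genes *Hes1*, *Hes5*, *Hey1* and *Heyl*. They were taken by name as 10 of the 24062 gene symbols counted in whole-kidney RNA, and all 10 passed the filter on low counts in every comparison.

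Notch receptors are cleaved when a Jagged or Delta ligand on a neighbouring cell binds them, and the freed intracellular part joins the DNA-binding protein RBPJ to switch on genes of the Hes and Hey families. In the developing kidney this signal acts in the first epithelial vesicles formed from the cap mesenchyme, where it is known for promoting proximal fates, and *Notch2* is the receptor best known for that role. Outside the nephron, *Notch1*, *Notch4* and *Dll4* are well known in endothelium, and *Notch3* and *Heyl* in the mural cells of vessels. Lunatic fringe, the product of *Lfng*, adds sugar to the extracellular part of Notch receptors and so changes which ligands they answer to.

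Kidneys were taken at postnatal day 3 from 4 groups of 3, 12 kidneys in all. LIN28B OE kidneys (C57BL/6, named LIN28B-Wt1 in the study) carried *TRE-LIN28B*, *lox-STOP-lox-rtTA* and *Wt1-Cre*, so that a pulse of doxycycline late in gestation switched on human LIN28B in cells with a history of *Wt1* expression, which include cap mesenchyme, cortical stroma, forming nephrons and podocytes. LIN28B control kidneys (C57BL/6) were from littermates that the labels call wild type, and whether they received doxycycline is not given in the sources used here. let-7 KO kidneys lacked *let-7a1*, *let-7d* and *let-7f1* in every cell, and let-7 WT kidneys were their wild-type littermates, both on a mixed CD1 and C57BL/6 background. The other let-7 genes remained in the let-7 KO. In each group replicates 1 and 2 came from litter 1 and replicate 3 from litter 2, and mutants and controls of an experiment shared those litters. LIN28 proteins block the maturation of let-7 microRNAs. The study also describes let-7-independent actions of Lin28b on the mRNAs it binds, so LIN28B OE is not only a way of lowering let-7. The comparisons ask what each model does to Notch transcripts at this age.

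The 3 deleted microRNAs are shown because their seed (bases 2 to 8, in capitals) decides which transcripts they pair with. All 3 lie on the minus strand of chromosome 13 (RefSeq, GRCm38.p6) and share the seed GAGGUAG.
let-7a-5p: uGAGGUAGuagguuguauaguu
let-7d-5p: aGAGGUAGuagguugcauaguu
let-7f-5p: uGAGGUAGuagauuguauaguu
Their positions are chr13:48538239-48538260, chr13:48536078-48536099 and chr13:48537889-48537910. The longest annotated 3′ UTR of each member (GENCODE M21, GRCm38) was searched for the pairing sequences CTACCTC and TACCTCA. No member held CTACCTC, and 2 of the 10 held TACCTCA once, against 15.3% of 19252 genes that held either sequence. Both sites are shown with the match in capitals.
Lfng, chr5:140615358-140615381, plus strand: cccaagactTACCTCAcccccacc
Notch2, chr3:98148837-98148860, plus strand: ttaagattgTACCTCAtccgaacc
Neither match is more than a description of these letters. The RBPJ core sequence GTGGGAA was searched on both strands of RefSeq promoters, which run from 250 bases before to 50 after a gene's start, and was found in 2 of the 8 promoters available for 7 members, against 6.38% of 32851 promoters. *Hes5* held it at positions -83 and -226 from its start (the latter on the opposite strand, so read as TTCCCAC), and *Lfng* held it at position -109.
Hes5, chr4:154960829-154960857, plus strand: ggccgccgagtGTGGGAAcggccgcggcg
Hes5, chr4:154960686-154960714, plus strand: gggcgagcgcgTTCCCACagcccggacat
Lfng, chr5:140607221-140607249, plus strand: ccgtatcccacGTGGGAAggagagatctc
*Hes1*, *Hey1* and *Heyl* had no entry. *Lfng* was the one member with both a let-7 seed match and a promoter match. Whether let-7 or RBPJ acts on *Lfng* through either match was not tested.

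Total counts were 39926235 to 61872736 per kidney, at which 3 counts equal 0.0485 to 0.0751 CPM (a gene's count scaled to a common library size). The labels were checked first on the targeted genes. The mouse *Lin28b* row held 232, 224 and 71 counts in LIN28B OE and 0, 18 and 33 in its controls, while human LIN28B is not a row of these tables, so that whether transgene reads fell in the mouse row was not tested. *Mirlet7d*, the precursor row of one deleted microRNA, held 0 counts in all 3 let-7 KO kidneys and 0, 19 and 35 in let-7 WT. *Mirlet7a-1* and *Mirlet7f-1* were also at 0 in let-7 KO. In let-7 WT they held 0, 8 and 0 counts and 0, 0 and 2, too few to check their deletion. *Six2*, the defining marker of nephron progenitors, lay between 108 and 166 CPM in LIN28B OE and between 10.2 and 14.9 CPM in its controls. All 7 progenitor markers were higher in LIN28B OE (edgeR p below 0.01 each), where 7.33% of all genes passed in either direction. Their summed level was 342 to 403 CPM against 69.8 to 85.4 CPM. In let-7 KO the sum was 79.1 to 121 CPM against 52.1 to 53.4 CPM, with 1 of 7 past the threshold, against 2.73% of all genes in either direction. Markers of proximal tubule, podocytes, distal nephron, collecting duct, endothelium, mural cells and stroma were counted in every group, with *Ren1* at 1 count or fewer and 4 globin genes at 0. LIN28B OE replicate 3 stood apart from the other LIN28B OE kidneys: its counts differed from theirs by a mean chi-square per gene of 227 and 237, against 60.5 between those 2 kidneys. Other pairs reached 239, between let-7 KO replicates 1 and 3. Results that rest on LIN28B OE replicate 3 are given with and without it.

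Per kilobase of the longest coding transcript, *Hes1* was the most abundant member, with a level of 72.9 ± 11.2 CPM per kb (mean ± SD, n = 12 kidneys). Its lowest kidney, at 50.9 CPM per kb, was above the highest kidney of every other member. *Hey1* (19.1 ± 5.52 CPM per kb), *Heyl* (16.02 ± 4.18), *Lfng* (12.9 ± 3.51) and *Jag1* (11.6 ± 4.12) came next, and neighbours in that order overlapped in range. *Hey1* was above *Heyl* in 8 of 12 kidneys, *Heyl* above *Lfng* in 9 and *Lfng* above *Jag1* in 8. *Dll1* followed at 8.09 ± 3.63 CPM per kb, below *Jag1* in 11 of 12 kidneys, then *Hes5* at 5.80 ± 2.32. The receptors were lowest per kilobase, with *Notch1* at 3.845 ± 1.004, *Notch3* at 3.44 ± 1.09 and *Notch2* at 2.22 ± 0.75 CPM per kb over the 12 kidneys. That order did not hold in every group: mean *Notch3* (2.80 CPM per kb) was below mean *Notch2* (2.97) in LIN28B OE, and above mean *Notch1* in let-7 WT (4.32 against 2.84). *Dll1* varied most over the 12 kidneys, with a coefficient of variation of 44.9%, and *Hes1* least, with 15.4%.

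**Figure D1:**
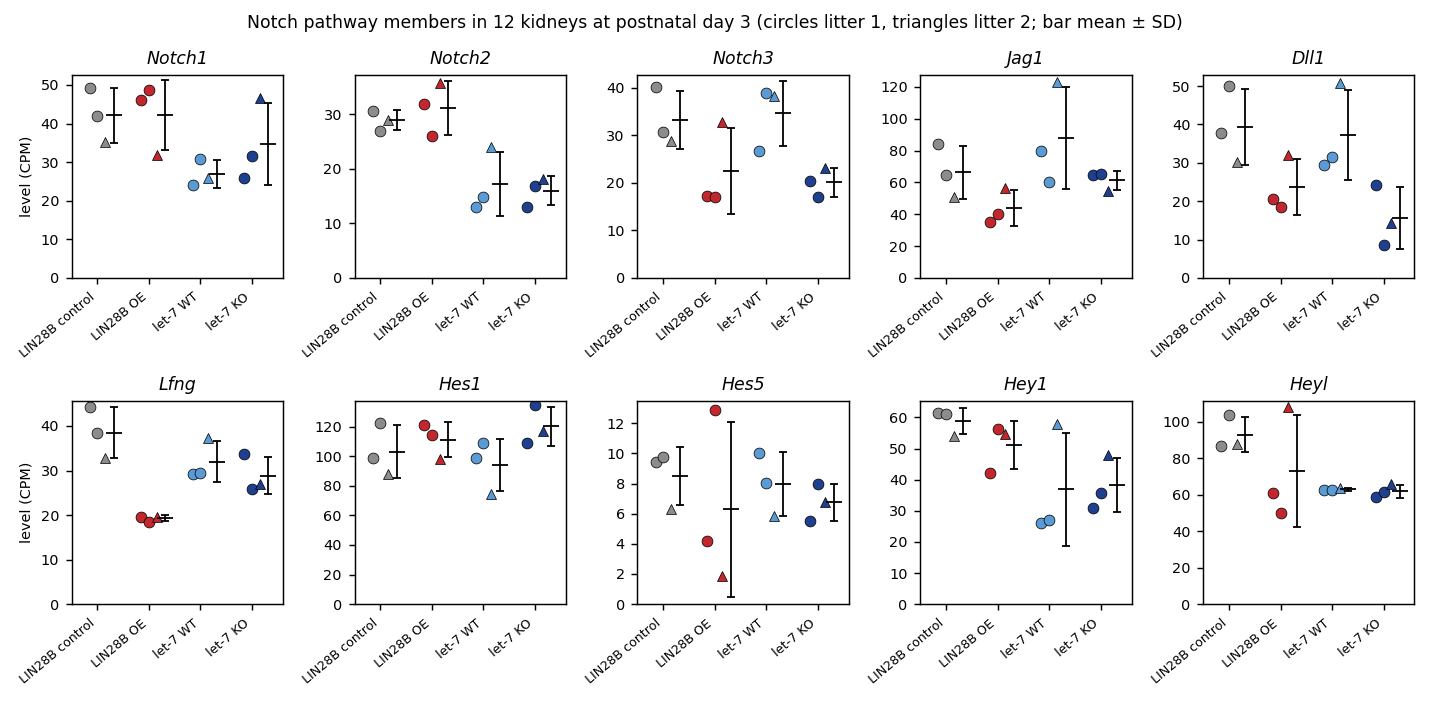
Level of each member in CPM (vertical axis, from 0) in the 12 kidneys, by group (horizontal axis). Circles are kidneys of litter 1, triangles are kidneys of litter 2, and the bars give the mean ± SD of 3 kidneys. The 3 LIN28B OE kidneys lie below the 3 LIN28B control kidneys for *Lfng*, and the 3 let-7 KO kidneys lie below the 3 let-7 WT kidneys for *Dll1* and *Notch3*.

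In LIN28B OE kidneys *Lfng* was at 0.501 times its control level, and it was the only one of the 10 members to pass p below 0.01. The ligands *Dll1* and *Jag1* and the receptor *Notch3* were lower in the 2 LIN28B OE kidneys of litter 1 and not in the 1 of litter 2. They did not pass the test. With 1 LIN28B OE kidney in litter 2, a difference between litters cannot be told apart from that kidney. *Notch1*, *Notch2* and *Hes1* lay within the spread between kidneys.

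*Lfng* (chr5:140607320-140615545, plus strand, GRCm38) was at 44.4, 38.4 and 32.8 CPM in the LIN28B control kidneys and at 19.7, 18.5 and 19.6 CPM in the LIN28B OE kidneys. The groups did not overlap, and the LIN28B OE kidneys lay close together. The log2 fold change was -0.997 ± 0.188 (SE; edgeR quasi-likelihood test, p = 0.000406, adjusted p = 0.0409, with an exact two-sided permutation test at 0.1, the smallest p that 3 against 3 allows). Of all genes tested, 4.08% were lower at p below 0.01, 0.766% were lower at an adjusted p below 0.05, and 13.5% did not overlap with LIN28B OE lower, against 1 of 10 members in each case. The log2 difference was -1.09 in litter 1 and -0.73 in litter 2, and *Lfng* passed p below 0.01 whichever kidney was left out, with log2 fold changes from -1.08 to -0.88. The adjusted p rose above 0.05 with litter as a block (edgeR adjusted p = 0.0782), while the call at p below 0.01 remained. It also rose when any kidney but LIN28B OE replicate 3 was left out (adjusted p from 0.0837 to 0.252), and was 0.0143 without that kidney. In the fit without it, 2074 of 16258 genes passed an adjusted p below 0.05 in either direction. In whole-kidney RNA, fewer cells that express a gene cannot be told apart from less of its RNA per cell. Early nephron markers, where *Lfng* is best known in this organ, had 1 of 7 lower at p below 0.01 (*Pax8*, log2 fold change -0.56), while *Cdh6* (-0.95), *Lhx1* (-0.51) and *Fgf8* (0.56) passed only p below 0.05, and their summed level was 563 to 676 CPM against 668 to 815 CPM in controls. Markers of more mature segments were lower in the same kidneys without overlap of their sums, at 886 to 1069 CPM against 1812 to 1922 CPM for proximal tubule (3 of 6 past p below 0.01) and 328 to 488 CPM against 757 to 1131 CPM for distal nephron (3 of 3). Immune markers were also lower without overlap (25.2 to 42.05 CPM against 54.1 to 56.6 CPM, 1 of 3 past p below 0.01 in edgeR). Of all genes in LIN28B OE, 9.48% were lower and 8.53% higher at p below 0.05. The part of any of these cell types in the *Lfng* result was not tested.

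*Dll1*, a Delta ligand found in early nephron epithelium (chr17:15367354-15376872, minus strand), was at 37.7, 49.98 and 30.2 CPM in controls and at 20.5, 18.4 and 32 CPM in LIN28B OE. Both LIN28B OE kidneys of litter 1 lay below every control, while replicate 3 lay among them. The log2 fold change was -0.73 ± 0.27 (95% interval -1.34 to -0.12, edgeR adjusted p = 0.196). *Jag1*, the Jagged ligand that is mutated in Alagille syndrome, whose features include kidney defects (chr2:137081456-137116644, minus strand), was at 83.8, 64.4 and 50.8 CPM in controls and at 35.2, 39.98 and 56.6 CPM in LIN28B OE. LIN28B OE replicate 3 again lay among the controls and the other LIN28B OE kidneys below them. The log2 fold change of *Jag1* was -0.59 ± 0.24 (95% interval -1.13 to -0.05, edgeR adjusted p = 0.236). *Notch3* (chr17:32120820-32166852, minus strand) was at 40.2, 30.7 and 28.8 CPM in controls and at 17.3, 17.1 and 32.9 CPM in LIN28B OE, a log2 fold change of -0.56 ± 0.29 (edgeR adjusted p = 0.354). *Heyl* (chr4:123233556-123249875, plus strand), a target known downstream of *Notch3* in mural cells, was at 86.5, 103.8 and 87.9 CPM in controls and at 61.0, 50.2 and 108.1 CPM in LIN28B OE, a log2 fold change of -0.34 ± 0.27 (edgeR adjusted p = 0.564). None of these 4 genes passed p below 0.01.

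Within litter 1 the log2 differences were -1.14 for *Dll1*, -0.96 for *Jag1*, -1.01 for *Notch3* and -0.77 for *Heyl*. Within litter 2, which holds 1 kidney of each group, they were 0.08, 0.16, 0.19 and 0.30. Without LIN28B OE replicate 3, 5 of the 10 members passed p below 0.01, all of them lower, where 7.73% of all genes tested were lower at that threshold. They were *Lfng*, *Dll1* (log2 fold change -1.02, edgeR adjusted p = 0.0264), *Jag1* (-0.83, adjusted p = 0.0367), *Notch3* (-0.95, adjusted p = 0.0244) and *Heyl* (-0.74, adjusted p = 0.0162). Of all genes in that fit, 2074 of 16258 passed an adjusted p below 0.05 in either direction, against 194 of 15793 with the kidney kept. With 1 kidney left of litter 2, all of it control, litter and genotype are in part confounded in that fit. The summed levels of vessel cell markers were lower in all 3 LIN28B OE kidneys than in any control, at 305 to 337 CPM against 447 to 508 CPM for endothelium and 549 to 642 CPM against 745 to 825 CPM for mural cells. In the fit that kept LIN28B OE replicate 3, 4 of 6 endothelial and 2 of 5 mural markers were lower at p below 0.01 (*Pdgfrb* log2 fold change -0.81). Of all genes in that fit, 4.08% were lower at this threshold. The part of vessel cells in the *Notch3* and *Heyl* values was not tested.

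The remaining receptors lay within the spread between kidneys. *Notch1* (chr2:26457903-26516663, minus strand) was at 49.3, 41.9 and 35.1 CPM in controls and at 46.1, 48.7 and 31.8 CPM in LIN28B OE, and the 95% interval of its log2 fold change ran from -0.47 to 0.47. *Notch2* (chr3:98013527-98150361, plus strand), which carries the other let-7 match, was at 30.7, 27.03 and 28.98 CPM in controls and at 31.9, 25.97 and 35.7 CPM in LIN28B OE, with an interval from -0.31 to 0.54. These intervals leave room for changes of either sign.

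Of the target genes, *Hes1* (chr16:30064384-30067796, plus strand), a repressor expressed in many tissues, was at 98.5, 122.6 and 87.8 CPM in controls and at 120.8, 114.5 and 98.1 CPM in LIN28B OE, a log2 fold change of 0.11 with an interval from -0.26 to 0.48. *Hey1* (chr3:8663359-8667256, minus strand) was at 61.5, 61.2 and 53.98 CPM in controls and at 42.3, 56.4 and 54.8 CPM in LIN28B OE, a log2 fold change of -0.20 with an interval from -0.58 to 0.18. *Hes5* (chr4:154960923-154962371, plus strand), whose promoter holds both RBPJ core matches above, was the least counted member and the most scattered within LIN28B OE, at 9.44, 9.75 and 6.28 CPM in controls and at 4.18, 12.9 and 1.86 CPM in LIN28B OE. LIN28B OE replicate 2 was the highest of the 12 kidneys and replicate 3 the lowest, and the interval of the log2 fold change ran from -1.78 to 0.91. No target gene of the 4 passed the test while *Lfng* did.

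**Figure D2:**
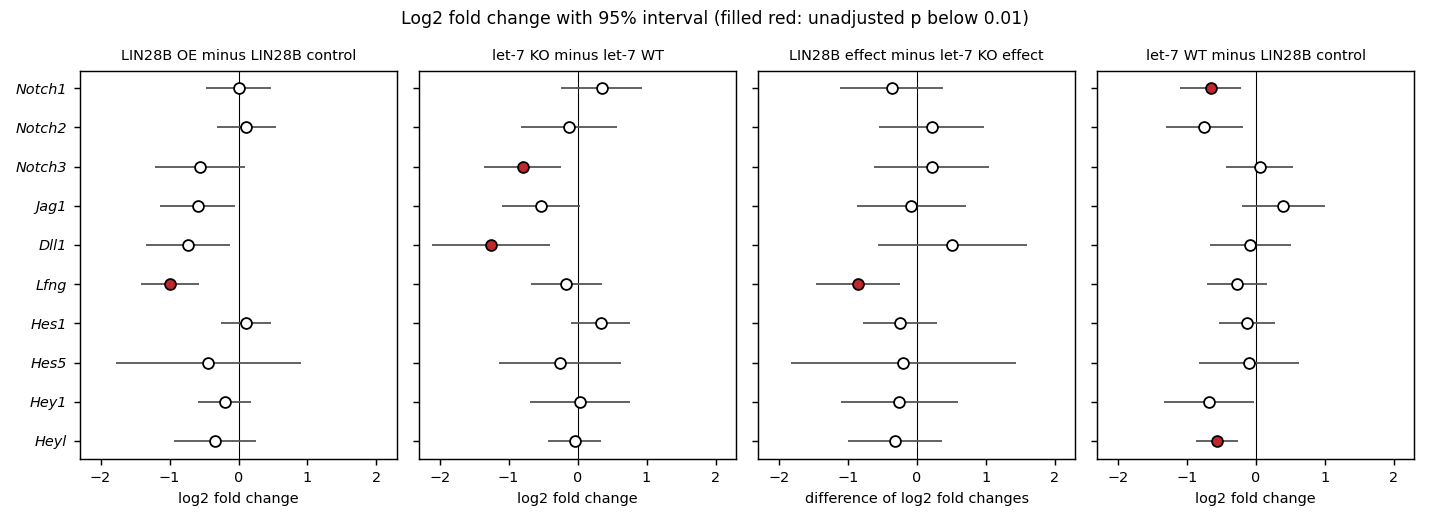
Log2 fold change of each member (horizontal axis) with its 95% interval, in 4 panels for LIN28B OE against its controls, let-7 KO against let-7 WT, the difference between those effects, and let-7 WT against LIN28B control. Filled red points had an unadjusted p below 0.01: *Lfng* in the first panel, *Notch3* and *Dll1* in the second, *Lfng* in the third, and *Notch1* and *Heyl* in the fourth.

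In let-7 KO kidneys the members past p below 0.01 were *Dll1* and *Notch3*, both lower, at 0.418 and 0.576 times their let-7 WT level. *Lfng* was at 0.894 times its let-7 WT level and did not pass the test. By edgeR none of the 10 passed an adjusted p below 0.05, and DESeq2, which also put *Dll1* and *Notch3* past p below 0.01, returned no adjusted p for them.

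*Dll1* was at 29.5, 31.6 and 50.9 CPM in let-7 WT and at 24.3, 8.46 and 14.2 CPM in let-7 KO. The groups did not overlap, and let-7 KO replicate 2 was the lowest of the 12 kidneys. The log2 fold change was -1.26 ± 0.39 (edgeR p = 0.00837, adjusted p = 0.362, exact permutation p = 0.1). *Notch3* was at 26.8, 38.8 and 38.2 CPM in let-7 WT and at 20.5, 17.0 and 23.1 CPM in let-7 KO, again without overlap. Its log2 fold change was -0.80 ± 0.25 (edgeR p = 0.00959, adjusted p = 0.366, exact permutation p = 0.1). Genes lower at p below 0.01 made up 1.63% of all those tested, genes with an adjusted p below 0.05 0.0194%, and genes that did not overlap with let-7 KO lower 8.79%, against 2, 0 and 2 of the 10 members. The log2 differences were -1.06 in litter 1 and -1.80 in litter 2 for *Dll1*, and -0.78 and -0.72 for *Notch3*. With litter as a block the log2 fold changes were about as large, -1.22 for *Dll1* and -0.80 for *Notch3*, and neither passed p below 0.01 (edgeR adjusted p = 0.498 for both). Leaving out 1 kidney ended both calls for let-7 WT replicates 2 and 3 and let-7 KO replicates 2 and 3, with p from 0.0120 to 0.0446 for *Dll1* and from 0.0112 to 0.0416 for *Notch3*. Without let-7 KO replicate 1 the *Notch3* p was 0.0168. By edgeR, none of the 5 tested mural markers passed p below 0.01 or 0.05 in let-7 KO, with a summed level of 768 to 1153 CPM against 690 to 1033 CPM in let-7 WT, and of the 7 early nephron markers 0 passed 0.01 and 3 passed 0.05 (*Pax8* and *Cdh6* lower, *Wnt4* higher; 746 to 828 CPM against 640 to 865 CPM). Summed levels were lower without overlap in the same let-7 KO kidneys for proximal tubule (1872 to 2382 CPM against 2587 to 3011 CPM, 1 of 6 past p below 0.01) and distal nephron (599 to 1087 CPM against 1089 to 1261 CPM, 0 of 3 past p below 0.01 and 2 past 0.05 in edgeR). Immune markers were also lower without overlap (24.7 to 41.7 CPM against 42.1 to 50 CPM, 0 of 3 past p below 0.01 in edgeR). Of all genes in let-7 KO, 5.56% were lower and 5.28% higher at p below 0.05. The part of these cell types in the *Dll1* and *Notch3* results was not tested.

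*Jag1* was at 79.5, 60.5 and 123.3 CPM in let-7 WT and at 64.4, 65.3 and 54.4 CPM in let-7 KO, where let-7 WT replicate 3 was the highest of the 12 kidneys. Its log2 fold change was -0.53 ± 0.25 (edgeR adjusted p = 0.484), with -0.10 in litter 1 and -1.17 in litter 2. *Lfng* was at 29.3, 29.3 and 37.3 CPM in let-7 WT and at 33.6, 25.9 and 26.9 CPM in let-7 KO, a log2 fold change of -0.16 with an interval from -0.68 to 0.35. *Notch1* was at 24.0, 30.9 and 25.8 CPM in let-7 WT and at 25.9, 31.6 and 46.6 CPM in let-7 KO, where replicate 3 alone was high (log2 fold change 0.35 ± 0.26). *Notch2* was at 13.0, 14.9 and 23.9 CPM in let-7 WT and at 13.0, 16.9 and 18.2 CPM in let-7 KO (log2 fold change -0.13 ± 0.31). Neither carrier of a let-7 match thus differed between let-7 KO and let-7 WT beyond the spread between kidneys, though the intervals are wide.

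The target genes of the let-7 groups overlapped throughout. *Hes1* was at 98.5, 109.3 and 74.7 CPM in let-7 WT and at 109.1, 134.4 and 116.7 CPM in let-7 KO, a log2 fold change of 0.33 ± 0.19 (edgeR adjusted p = 0.565), with a positive difference in both litters (0.22 and 0.64). *Heyl* was at 62.5, 62.6 and 63.7 CPM in let-7 WT and at 58.7, 61.2 and 65.7 CPM in let-7 KO, so that it lay close to its control level while *Notch3* was lower in the same kidneys (log2 fold change of *Heyl* -0.04, interval -0.42 to 0.34). *Hey1* ranged from 26.02 to 57.8 CPM in let-7 WT and from 30.9 to 47.9 CPM in let-7 KO, and *Hes5* from 5.84 to 10.1 and from 5.51 to 7.98 CPM.

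Whether the models differed from each other was tested in one fit of all 12 kidneys. *Lfng* was the one member whose effects differed at p below 0.01, with a difference in log2 fold change of -0.85 ± 0.28 (LIN28B effect minus let-7 KO effect; 95% interval -1.45 to -0.25, edgeR adjusted p = 0.611), where 1.55% of all genes passed p below 0.01 and 0.00602% an adjusted p below 0.05. With litter as a block it did not pass (adjusted p = 0.820). For *Dll1* the difference was 0.52, with a 95% interval from -0.57 to 1.60, for *Notch3* 0.22 (-0.62 to 1.05) and for *Jag1* -0.08 (-0.87 to 0.71). These intervals are wider than the effects themselves, so that neither a shared nor a separate response of the ligands and *Notch3* is shown. The side-by-side log2 fold changes in LIN28B OE and let-7 KO were -0.73 and -1.26 for *Dll1*, -0.59 and -0.53 for *Jag1*, and -0.56 and -0.80 for *Notch3*.

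The control groups differed from each other as well. In let-7 WT against LIN28B control, *Heyl* had a log2 fold change of -0.56 ± 0.14 (edgeR adjusted p = 0.0999) and *Notch1* of -0.65 ± 0.20 (adjusted p = 0.192), and both passed p below 0.01. *Notch2* was also lower in every let-7 WT kidney than in any LIN28B control (log2 fold change -0.75 ± 0.25, edgeR adjusted p = 0.239) and did not pass. Lower genes at p below 0.01 were 1.97% of those tested, genes with an adjusted p below 0.05 1.19%, and genes that did not overlap with let-7 WT lower 10.2%, against 2, 0 and 3 of the 10 members. The log2 fold change of *Hey1* was -0.68 ± 0.29 (edgeR adjusted p = 0.379), with let-7 WT replicate 3 at 57.8 CPM and the other two at 26.02 and 26.9 CPM. Without that kidney *Hey1* (log2 fold change -1.16, adjusted p = 0.0159) and *Notch2* (-1.06, adjusted p = 0.04997) passed p below 0.01 and *Notch1* did not (adjusted p = 0.193). In that fit 308 of 16206 genes passed an adjusted p below 0.05 in either direction. Without LIN28B control replicate 2 or let-7 WT replicate 1, neither *Heyl* nor *Notch1* passed, and *Notch1* did not without LIN28B control replicate 1. Strain background, breeding and experiment cannot be told apart in this contrast. Levels of *Notch1*, *Notch2*, *Hey1* and *Heyl* in one mutant are therefore to be read against its own littermates.

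Libraries also differed in how counts depended on transcript length, measured as the slope of each kidney's log2 level, relative to the mean of 12, on log2 length over 15768 genes. In the LIN28B experiment the slopes were 0.117, 0.073 and -0.00052 in controls and -0.051, -0.054 and 0.102 in LIN28B OE. In the other experiment they were 0.035, -0.072 and 0.113 in let-7 WT and 0.0078, -0.121 and -0.15 in let-7 KO. LIN28B OE replicate 3, whose *Dll1*, *Jag1* and *Notch3* values lay among the controls and whose *Heyl* value lay above them, had a slope within the range of the control kidneys. The let-7 KO kidneys with the lowest *Dll1* had the lowest slopes of the 12. *Notch1*, with a longer transcript than *Dll1* (9.49 against 3.58 kb), was highest among the let-7 kidneys in let-7 KO replicate 3 (46.6 CPM), where the slope was lowest. Slopes also differed in part by group, and the part of the slope in these values was not tested. With the slope as a covariate the log2 fold change of *Dll1* in let-7 KO was -0.76 (edgeR adjusted p = 0.668) and that of *Notch3* -0.82 (adjusted p = 0.586), neither past p below 0.01, and in LIN28B OE the values were -0.48 for *Dll1*, -0.30 for *Jag1* and -0.27 for *Notch3*. *Lfng* in LIN28B OE kept its call with the covariate (-0.90, edgeR adjusted p = 0.0331), and its LIN28B OE replicate 3 was as low as the others. With the covariate more genes passed in LIN28B OE: 1543 of 15793 at p below 0.01 and 885 at an adjusted p below 0.05. Without it they were 1158 and 194.

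**Figure D3:**
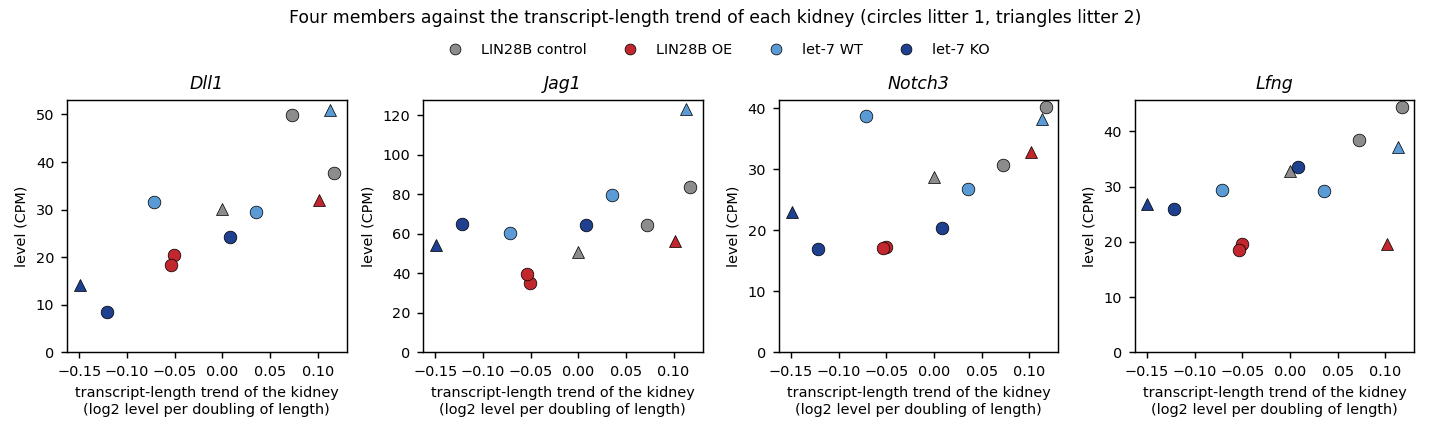
Level in CPM (vertical axes, from 0) of *Dll1*, *Jag1*, *Notch3* and *Lfng* against the transcript-length slope of the same kidney (horizontal axis, log2 level per doubling of length). Colours mark the 4 groups, circles litter 1 and triangles litter 2. LIN28B OE replicate 3, the red triangle at a slope of 0.102, sits near the controls for *Dll1*, *Jag1* and *Notch3* and at the bottom, at 19.6 CPM, for *Lfng*.

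Beyond the 10 members, 57 other genes of the pathway were listed by role, and 54 were tested in each model. In LIN28B OE, edgeR put 1 higher and none lower at p below 0.01, and 2 higher and 5 lower at p below 0.05. Over all genes 7.33% passed p below 0.01 in either direction, and 8.53% were higher and 9.48% lower at p below 0.05. Negative log2 fold changes were 30 of the 54, against 51.5% of all genes, with a median log2 fold change of -0.11 against -0.02 over all genes. The one was *Dlk1*, a Delta-like membrane protein that lacks the usual receptor-binding domain. It was at 16.5, 20.03 and 11.8 CPM in controls and at 26.5, 30.2 and 49.4 CPM in LIN28B OE (log2 fold change 1.14 ± 0.29, edgeR adjusted p = 0.0907). DESeq2 called 3 of these genes (10.9% of all genes) and the fit with litter as a block 2 (5.72% of all). Without LIN28B OE replicate 3 there were 6 (15.4% of all), without replicate 1 there were 3 (5.12% of all), and without LIN28B control replicates 1 or 3 there were none. In let-7 KO none of the 54 passed p below 0.01 in edgeR or DESeq2, where 2.73% of all genes passed in edgeR. At p below 0.05 in edgeR 6 were lower and 1 higher, against 5.56% and 5.28% of all genes. Of the 54, 39 had a negative log2 fold change, against 52% of all genes, and the median was -0.17 against -0.02 over all genes. Without let-7 KO replicate 1 there were 3 (8.12% of all genes), and without let-7 WT replicate 2 there was 1 (2.35% of all).

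*Notch4*, the remaining receptor, was at 19.3, 25.8 and 23.6 CPM in LIN28B controls and at 17.1, 11.6 and 13.2 CPM in LIN28B OE. The groups did not overlap, which held with LIN28B OE lower for 13.5% of all genes. *Notch4* did not reach the threshold (log2 fold change -0.71 ± 0.23, edgeR adjusted p = 0.153), and endothelial markers were lower in the same kidneys. In let-7 KO its log2 fold change was -0.39 ± 0.31. The ligand *Dll4*, known from endothelial tip cells, had log2 fold changes of -0.27 ± 0.29 in LIN28B OE and -0.47 ± 0.30 in let-7 KO. For *Jag2* they were -0.35 ± 0.37 and -0.25 ± 0.43, and for the target *Hey2* -0.46 ± 0.50 and -0.26 ± 0.60. *Dll3* stayed under 1 CPM in every kidney and was not tested in either model.

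*Dtx3l*, a ubiquitin ligase of the Deltex family, was among the 3 genes with the largest absolute change in both models. It was at 14.8, 11.04 and 9.41 CPM in LIN28B controls and at 8.02, 4.47 and 2.49 CPM in LIN28B OE (log2 fold change -1.23 ± 0.43, edgeR adjusted p = 0.175), and at 7.31, 11.7 and 11.7 CPM in let-7 WT and 5.84, 3.82 and 5.24 CPM in let-7 KO (-1.06 ± 0.40, adjusted p = 0.392). Neither mutant group overlapped its controls, where 13.5% of all genes did not overlap with LIN28B OE lower and 8.79% with let-7 KO lower. *Dtx3l* passed p below 0.01 in neither model. Besides *Dlk1*, the other large values belonged to scarcely counted genes. *Hes7*, an oscillating repressor of the segmentation clock, had a log2 fold change of 1.30 ± 1.15 in LIN28B OE, where replicate 2 held 105 counts and the others 30 and 9. *Dner*, a neuronal ligand, had one of -1.76 ± 1.97 in let-7 KO, and *Chac1*, which modifies immature Notch1, one of -1.06 ± 1.22, each with a let-7 KO kidney at 0 counts.

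**Figure D4:**
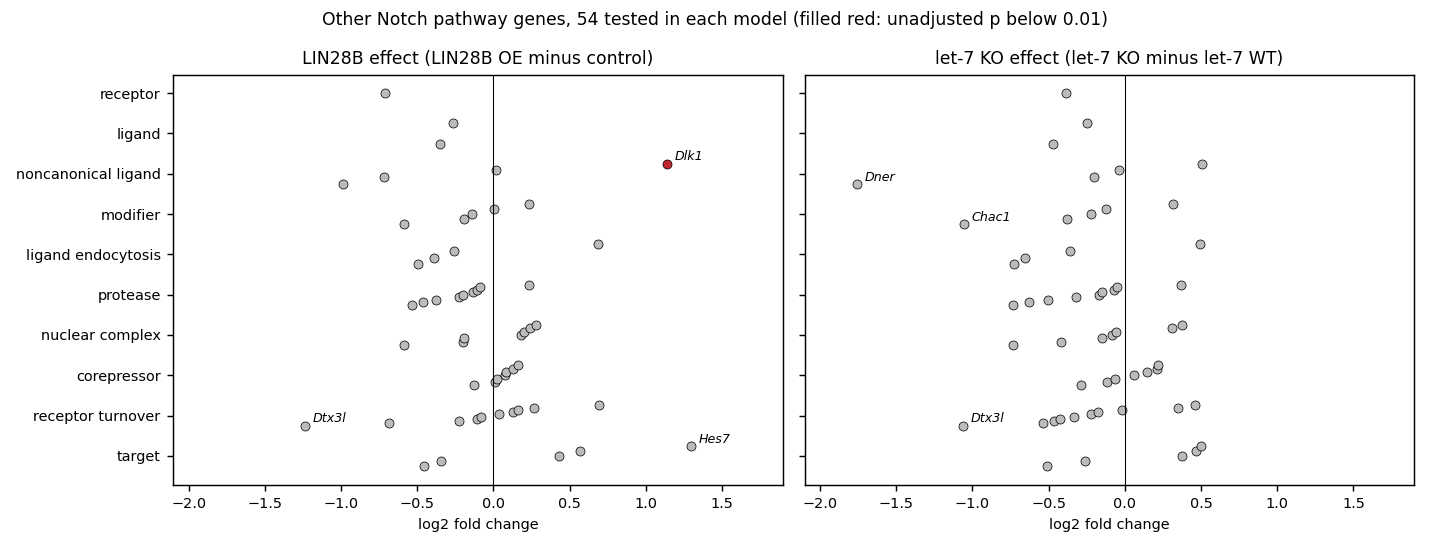
Log2 fold change (horizontal axis) of the 54 other Notch pathway genes tested in LIN28B OE (left) and let-7 KO (right), in rows by role. *Dlk1* in LIN28B OE, in red, is the one gene with an unadjusted p below 0.01, and genes past a log2 fold change of 1 in either direction are named.

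For 4 members the genes with the most similar pattern were sought among all genes tested, by Pearson correlation of log2 CPM over the 12 kidneys. These values describe the 12 kidneys only, which share groups, litters and library properties such as the length slope. Among the genes most like *Notch3* were *Clec7a* (r = 0.96), *Arhgap21*, *Hipk2* and *Lrrc61* (0.90). *Dll1* was most like *Kat7* (r = 0.95), *Ralgapa1*, *Zbtb1*, *Eda* and *Slit1* (0.93). The 5 genes nearest *Jag1* were *Sgms1* (r = 0.95), *Tgfbr2*, *Car12*, *Gng12* and *Ezr* (0.93). *Notch1* was followed most closely by *2810008D09Rik* (r = 0.93), *Med13*, *Tesc*, *A330032B11Rik* and *Zbtb8a* (0.90). No gene of the pathway lists was among those named here.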

How the data were processed

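RNA of 12 whole kidneys (Trizol, DNase) was amplified with a SMARTer Ultra Low kit and read on an Illumina HiSeq. For every kidney the authors deposited a table of raw read counts by gene symbol. The submitters' processing notes name cutadapt, TopHat2 2.0.9, Bowtie2, SAMtools 0.1.19 and HTSeq with mm10. The annotation, the strand setting and the handling of shared reads are not given in the sources used here. Reads of *Notch1*, *Notch3*, *Dll1* and *Hes5* therefore cannot be told apart from those of genes annotated on the opposite strand at the same place. On the same strand, *Mir6996* lies within *Notch1*, and *Gm42819* and *Gm42820* lie within *Notch2*.

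Only the kidneys of a comparison entered its fit. The quasi-likelihood test of edgeR 4.0.16 was run in R 4.3.3 over all genes left by filterByExpr (minimum count 10, minimum total 15), after TMM normalization, and p-values were adjusted by Benjamini-Hochberg. A gene was called at an unadjusted p below 0.01, the study's threshold, and calls at an adjusted p below 0.05 are given beside it. CPM values used TMM factors over all 12 kidneys. Permutation tests were exact, two-sided and on log2(CPM + 0.5). Counting error is the only error that the 3-count floor covers. The scripts were tested on simulated counts. No pair of kidneys within a group agreed within sampling noise, and pairs across groups were not checked.

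Replicates of a group were numbered by litter, as the labels give it, and litters are shared by mutants and controls, so litter was tried as a block. Deviations of kidneys from their group means had a mean correlation of -0.0858 within a litter and 0.106 between litters in the LIN28B experiment, and of -0.0199 and 0.0248 in the other. Alternatives were DESeq2 1.42.0, upper-quartile normalization, other filters, the litter block, one fit of all 12 kidneys, each kidney left out in turn and, chosen after seeing the data, the transcript-length covariate. The members and lists were chosen with earlier results of these data known. Named were all 10 members, the other pathway genes called in either model, the 3 largest changes in each, the detected canonical ligands, *Notch4* and *Hey2*, marker genes that a result stands beside, and the 5 genes most like each of 4 members, of which 1 is not reported here. Of the 24062 symbols 22708 matched GENCODE M21. The length of a gene was that of its longest protein-coding transcript, or of its longest transcript where it had no coding one. Its 3′ UTR was the longest among its protein-coding transcripts.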

Additional observations from a re-analysis of the deposited data

Results flagged for a closer look

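The LIN28B and let-7 KO effects on *Lfng* differed only at an unadjusted p below 0.01, which 1.55% of all genes passed. The difference in log2 fold change was -0.85 ± 0.28 (edgeR interaction over 12 kidneys, adjusted p = 0.611), so that it did not pass adjustment. *Lfng* was lower in 3 of 3 LIN28B OE kidneys than in any control, whereas let-7 KO replicate 1 was above 2 of the 3 let-7 WT kidneys. The value ranged from -0.98 to -0.72 when each of the 12 kidneys was left out in turn, and passed p below 0.01 in 3 of those 12 fits.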

How the results depend on the processing

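Of 600 recomputed values, 518 kept their direction and side of the threshold, 42 kept their direction but lost the call, 9 gained one and 31 changed sign, and for values that changed sign the cause was not tested. The number of members called in LIN28B OE was 1 (*Lfng*) under every alternative except leaving out kidneys (1 to 5, with 5 without LIN28B OE replicate 3). In let-7 KO the 2 calls became 1 with upper-quartile normalization, 1 with at least 1 CPM in every kidney, 1 in one fit of all 12 kidneys, 0 at an adjusted p below 0.05, 0 with the length covariate and 0 with litter as a replicate block, and 0 to 2 without 1 kidney. The 1 call for the difference of effects became 0 without a filter, with at least 1 CPM in every kidney, at an adjusted p below 0.05 and with the litter block, and 0 to 1 without 1 kidney (without LIN28B OE replicate 3 the call was *Heyl*). The 2 calls between control groups became 0 at an adjusted p below 0.05 and in one fit, 3 with DESeq2 (*Notch2* added), and 0 to 3 without 1 kidney. With the length covariate they were *Jag1* and *Heyl*. Of the other pathway genes in LIN28B OE, 1 became 3 with DESeq2, 2 with the litter block and 0 to 6 without 1 kidney, and in let-7 KO 0 became 0 to 3. Over all genes, DESeq2 called 1726 in LIN28B OE against 1158 in edgeR and 843 in let-7 KO against 423.

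The values that changed sign were these. In LIN28B OE *Notch1* went from 0.0028 to -0.0025 with at least 1 CPM in every kidney, -0.092 with the length covariate, -0.0085 with the litter block, and -0.092 to 0.16 without 1 kidney, and *Notch2* to between -0.0052 and 0.25. In let-7 KO *Lfng* went to 0.069 with the length covariate, and without 1 kidney *Hey1* ran from -0.17 to 0.51 and *Notch2* from -0.30 to 0.17. For the difference of effects the ranges without 1 kidney were -0.40 to 0.13 for *Jag1*, -1.25 to 0.24 for *Hes5*, -0.17 to 0.38 for *Notch3* and -0.088 to 0.39 for *Notch2*. Between controls *Dll1* was 0.037 with the length covariate, and without 1 kidney -0.37 to 0.13, *Hes1* -0.25 to 0.0090, *Hes5* -0.30 to 0.084 and *Notch3* -0.031 to 0.22. Every comparison rests on 3 kidneys a group, and *Hes5* was the least counted member.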
